A study of Mus musculus with 12 samples.

Results

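Metalloproteases of the matrix metalloproteinase (Mmp), Adam and Adamts families and the tissue inhibitors of metalloproteinases (Timp) were examined in mouse liver after loss of 2 acetyl-CoA-producing enzymes from hepatocytes. The members were the genes of the deposited expression table whose symbols begin with Mmp, Adam or Timp and a digit, or with Adamts, which also takes in the Adamts-like genes (Adamtsl); Mmp12 was left out by the same rule. They numbered 31 of the 12284 named genes, with 7 Mmp, 9 Adam, 9 Adamts, 4 Adamtsl and 2 Timp genes. Polyadenylated liver RNA was sequenced in 12 libraries, 6 from double knockout (DKO) and 6 from control (WT) mice. The DKO mice were Acly f/f; Acss2 f/f animals given AAV8-TBG-Cre, an adeno-associated virus carrying Cre recombinase under a hepatocyte-directed promoter, and the WT mice were Acly f/f; Acss2 f/f animals given AAV8-TBG-GFP. Both groups therefore carried the floxed alleles, and cells other than hepatocytes were not targeted by the promoter. Injection was at 6 to 8 weeks of age, and a Western diet, Teklad TD.88137, followed in both groups from 1 week later, lasting 6 weeks. Loss of the enzymes and any effect of the Cre protein, or of GFP in WT mice, cannot be told apart. Whether every library is a mouse of its own is not said in the labels, so p-values cover the spread between libraries and no more.

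Metalloproteases of these families use a zinc ion to cut proteins outside the cell. Mmp enzymes are best known for cutting collagens and other matrix proteins, Adam enzymes for releasing the outer parts of membrane proteins, and Adamts enzymes for cutting proteoglycans, procollagens and von Willebrand factor. Timp proteins bind the active site of these enzymes and block them. In liver, stellate cells, macrophages and endothelial cells are known sources of many of them, and the balance of proteases and inhibitors is a classical theme of fibrosis research.

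Values are log2 CPM, that is, counts of reads on a log2 scale relative to the size of the library, normalized between libraries by the authors. They are not divided by gene length, so levels are compared between groups for 1 gene and not between genes. The table has a shared lowest value of -3.26 log2 CPM, and read depth is unknown; turned back to CPM, the values of a library added up to 905964 to 1087992. As a check of the labels, Acly ranged from 4.42 to 6.60 log2 CPM in DKO and from 6.56 to 9.35 in WT, and Acss2 from 3.59 to 5.74 in DKO and from 6.12 to 7.45 in WT. In both genes the library DKO 1 had the highest DKO value. The hepatocyte markers of the liver were abundant in every library, with 11 of the 12 genes of that list measured and a summed level of 67120 to 97670 CPM in DKO and 84530 to 97910 CPM in WT. "Called" means a limma adjusted p below 0.05 over all 12284 genes, and log2 fold changes are DKO minus WT.

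Among the 31 members 1 was called. Adam11 fell in DKO to 28.7% of the WT level, and 0 members were called higher. The background was 1.74% of all genes called in either direction, 1.12% called lower and 0.619% called higher in DKO, so 1 of 31 is close to the share among all genes. The 6 DKO and 6 WT values did not overlap for 1 member, again Adam11, and for 2.17% of all genes. Unadjusted limma p-values below 0.05 were found for 7 of 31 members (22.6%) and 16.4% of all genes. The log2 fold change was above 0 for 23 of 31 members (74.2%) and for 50.8% of all genes, and its median was 0.24 over the members and 0.0041 over all genes. By family the median was 0.34 for Mmp, 0.18 for Adam, 0.16 for Adamts with Adamtsl and 0.34 for Timp genes. Single libraries moved 3 of these medians by over 1.5 times. That of Mmp genes was 0.16 without DKO 5 and 0.51 without DKO 3, that of Adam genes 0.080 without DKO 1 and 0.30 without WT 1, and that of Adamts with Adamtsl genes 0.099 without DKO 3 and 0.29 without WT 4.

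The members are those that passed the authors' filter on low values, and weakly expressed genes can pass such a filter through 1 group alone. Of the 31 members, 20 exceeded 1 CPM in all 12 libraries. A further 3, Mmp9, Mmp27 and Adamtsl1, exceeded it in DKO libraries only, and 0 in WT libraries only; over all genes the numbers were 55 and 26. These counts and medians are descriptions of the genes listed and not a test of the families. Over the 4 Mmp genes that averaged 1 log2 CPM or more the median log2 fold change was -0.0090, and over 8 such Adamts and Adamtsl genes it was 0.011, while 5 such Adam genes had a median of 0.18. Over all 19 such members the median was 0.13, with 13 above 0 (68.4%). Over all genes at that level it was -0.0033, with 49.2% above 0.

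**Figure D1:**
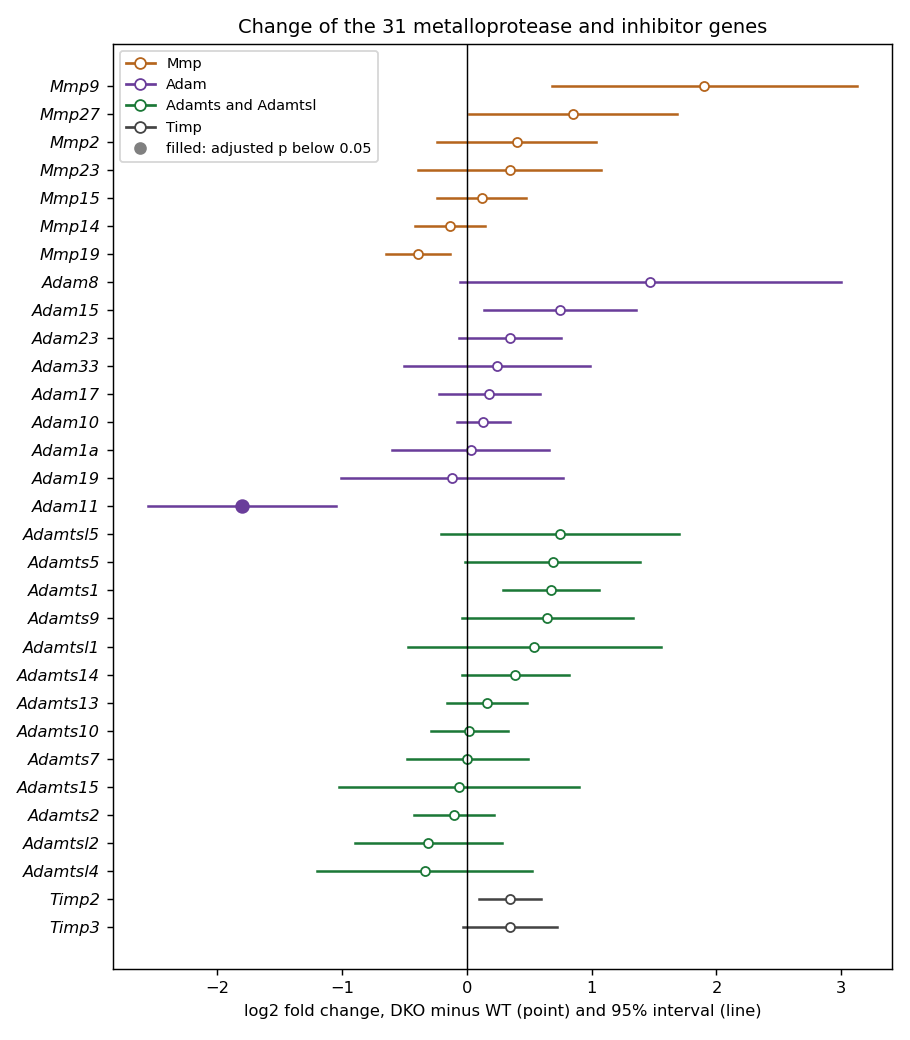
Log2 fold change (DKO minus WT, horizontal axis) of the 31 members with 95% intervals from limma, grouped by family and ordered within it; filled points have an adjusted p below 0.05. The interval of Adam11, from -2.55 to -1.05, is the only one of a called gene, and 7 intervals in all lie to one side of 0.

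Adam11 encodes a membrane protein of the Adam family that lacks the zinc-binding motif and so is not held to be a protease; with Adam22 and Adam23 it forms a branch known from neurons, where it acts as an adhesion and signalling partner. Its lowest, median and highest levels were 3.12, 5.03 and 5.77 log2 CPM in DKO, against 5.95, 6.68 and 7.08 log2 CPM in WT. The highest DKO library, DKO 6, lay under the lowest WT library, WT 1, and the low DKO extreme came from DKO 3. The group means were 4.85 ± 0.93 in DKO and 6.66 ± 0.38 log2 CPM in WT (SD, n = 6 each). The difference was -1.80 on the log2 scale, with an SE of 0.35 and a limma adjusted p of 0.0210, and the 2-sided exact permutation p was 0.00216, the smallest that 924 divisions of 12 libraries allow.

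The fall of Adam11 was of similar size whichever library was left out, from -1.98 to -1.45, but its call was lost without DKO 4 (adjusted p = 0.0521), WT 5 (0.0528) or WT 6 (0.0560). Without DKO 3, the lowest library, the log2 fold change was -1.45 and the call was kept. Beside it, the median log2 fold change of the hepatocyte markers was -0.22, with 9 of 11 below 0, 1 called lower (the asialoglycoprotein receptor gene Asgr1, 78.4% of the WT level) and 0 values at the lowest level of the table. Whether the share of hepatocyte RNA plays a part in the Adam11 value was not tested. In bulk tissue, fewer cells of a type and less RNA per cell cannot be told apart.

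Adam23, of the same branch as Adam11, did not pass the test and pointed the other way. Its lowest, median and highest levels were 3.82, 4.42 and 4.85 log2 CPM in DKO, against 3.44, 4.06 and 4.51 in WT. The groups overlapped over most of their range, and the log2 fold change was 0.35 (SE 0.19, adjusted p = 0.390, 95% interval -0.063 to 0.75).

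Of the Adam genes, 6 stood in the list of those known to carry the zinc-binding motif, 2 (Adam11 and Adam23) in that of those known to lack it, and Adam1a in neither list. Among the 6, limma called 0, with 1 at an unadjusted p below 0.05 (Adam15). The shares over all genes were 1.74% called and 16.4% at such a p-value. Adam10 and Adam17 are the main sheddases, which release Notch, cadherins, growth factors and tumour necrosis factor from cell surfaces. Adam10 averaged 5.06 ± 0.20 log2 CPM in DKO and 4.92 ± 0.098 in WT (SD, n = 6 each), with a 95% interval of the log2 fold change from -0.079 to 0.34 (adjusted p = 0.550). Adam17 averaged 4.30 ± 0.36 in DKO and 4.12 ± 0.36 log2 CPM in WT, with an interval from -0.23 to 0.58 (adjusted p = 0.696). Both intervals stayed within 1 of 0 on the log2 scale, that is, inside a 2-fold change in either direction. Adam17 overlaps the protein-coding gene Iah1 in the RefSeq annotation of GRCm38. Iah1 had a log2 fold change of -0.24 (limma adjusted p = 0.233), and how reads in the overlap were assigned is not said.

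Adam15, a membrane protease also named metargidin for its integrin-binding sequence, had 1.38, 2.18 and 3.16 log2 CPM as its lowest, median and highest levels in DKO, against 1.38, 1.51 and 2.08 in WT. The DKO libraries were spread out, with DKO 4 and DKO 6 highest and DKO 1 and DKO 3 among the WT values, and 4 of 6 lay above every WT library. The log2 fold change was 0.75 (SE 0.29, adjusted p = 0.201; exact permutation p = 0.0390). Adam8, a protease of leukocytes, ranged from -1.62 to 2.09 log2 CPM with a median of 0.047 in DKO, against -2.54 to 0.82 with a median of -1.79 in WT. Its groups overlapped because WT 4 was high and DKO 2 and DKO 6 were low, and the log2 fold change of 1.47 had an SE of 0.71 (adjusted p = 0.325). On the log2(CPM + 1) scale, which weighs low values less, it was 0.61.

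The remaining Adam genes varied without separation. Adam33, studied mostly in airway smooth muscle, had a log2 fold change of 0.24 (SE 0.35) and ranged from -0.78 to 1.37 log2 CPM in DKO and from -0.50 to 0.58 in WT. Adam19, also called meltrin beta, had -0.12 (SE 0.42) and ranged from -0.35 to 1.59 in DKO and from -0.22 to 2.20 in WT. Adam1a, a relative of the sperm protein fertilin, had 0.030 (SE 0.29), and its median was 0.052 log2 CPM in DKO and 0.021 in WT. The directions of Adam19 and Adam1a turned when some single libraries were left out, and that of Adam1a also with quantile normalization or array weights.

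Over all genes limma called 1.74%, and 16.4% had an unadjusted p below 0.05. In the Mmp family limma called 0 of 7 genes, and 3 had an unadjusted p below 0.05 (Mmp9, Mmp19 and Mmp27). Of these, Mmp9 and Mmp27 exceeded 1 CPM in DKO libraries only and may have passed the authors' filter through DKO alone. The p-values of Mmp9 and Mmp27 are therefore given as description and not as support for a difference. The gelatinases, Mmp2 and Mmp9, cut denatured collagen and the type IV collagen of basement membranes. Mmp9, made largely by neutrophils and macrophages, had lowest, median and highest levels of -0.79, 0.34 and 2.24 log2 CPM in DKO, against -3.26, -1.04 and -0.77 in WT. Of the DKO libraries 5 lay above every WT library and DKO 6 (-0.79) lay just under WT 2 (-0.77), while WT 6 stood at the lowest value of the table. The means were 0.46 ± 1.12 in DKO and -1.44 ± 0.96 log2 CPM in WT (SD, n = 6 each), and the log2 fold change was 1.90 (SE 0.57, adjusted p = 0.103; exact permutation p = 0.00433). On the log2(CPM + 1) scale it was 0.84 with an adjusted p of 0.126.

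Mmp2, a product of stellate cells and fibroblasts, had 0.87, 1.83 and 2.79 log2 CPM in DKO, against 0.89, 1.28 and 1.97 in WT, as lowest, median and highest levels. The groups overlapped nearly in full, since DKO 3 was the lowest of all and only DKO 2 exceeded every WT library. The log2 fold change was 0.40 (SE 0.30, adjusted p = 0.548), and it was 0.19 without DKO 2 and 0.58 without DKO 3.

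Markers of immune cells are given beside these values. Of all genes, 50.8% had a log2 fold change above 0, 16.4% an unadjusted limma p below 0.05, and 1.74% were called. All 13 measured macrophage and Kupffer cell markers had a log2 fold change above 0, with a median of 0.64, 13 at an unadjusted p below 0.05, 2 called higher (Ccr2 and Lyz2) and a summed level of 568 to 905 CPM in DKO and 408 to 764 CPM in WT. All 7 measured markers of lipid-associated macrophages were also above 0, with a median of 1.04 and 7 at an unadjusted p below 0.05, and their sum was 109 to 265 CPM in DKO and 57.8 to 125 CPM in WT. Within this list Gpnmb was at the lowest value of the table in 3 WT libraries, and Gpnmb and Spp1 were called higher. Gpnmb and Itgax averaged -2.40 and -0.63 log2 CPM in WT, below 1 CPM, and may have passed the authors' filter through DKO alone. Their p-values, and with them the count of 7, are description and not support for a difference. Of 8 neutrophil markers only Csf3r was in the table, at 2.95 to 5.99 CPM in DKO and 1.73 to 5.02 CPM in WT. The part of these cells in the values of Mmp9 and Adam8 was not tested.

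Mmp19, a secreted protease that cuts basement membrane proteins, had the most negative log2 fold change of its family. Its lowest, median and highest levels were 5.20, 5.56 and 5.79 log2 CPM in DKO, against 5.69, 5.85 and 6.22 in WT. In 4 DKO libraries it lay below every WT library, while DKO 2 and DKO 6 lay above WT 3, the lowest of them. The log2 fold change was -0.39 (SE 0.12, adjusted p = 0.110, exact permutation p = 0.0130), 76.2% of the WT level. With a block for the replicate number, which no label says marks pairs, the limma adjusted p was 0.0272. Mmp19 overlaps the protein-coding gene Tmem198b in the RefSeq annotation of GRCm38; Tmem198b had a log2 fold change of -0.35 (adjusted p = 0.422), and the sources used here do not say how reads in the overlap were assigned.

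The membrane-type enzymes stand at the cell surface, where Mmp14 cuts fibrillar collagen and, together with Timp2, activates the Mmp2 precursor. Mmp14 averaged 4.55 ± 0.25 log2 CPM in DKO and 4.68 ± 0.22 in WT (SD, n = 6 each), and its 95% interval ran from -0.42 to 0.15 around a log2 fold change of -0.14 (adjusted p = 0.665). Mmp15, the second membrane-type enzyme measured, averaged 6.16 ± 0.32 in DKO and 6.04 ± 0.32 log2 CPM in WT, with a log2 fold change of 0.12 (SE 0.16). The 2 groups shared nearly the same range in both genes.

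Mmp27, a little-studied enzyme related to the stromelysins, had -1.02, -0.19 and 0.41 log2 CPM in DKO, against -1.98, -0.95 and -0.37 in WT, as lowest, median and highest levels. All 6 DKO libraries lay above the WT mean and 3 of them above every WT library, for a mean log2 difference of 0.85 ± 0.39 (SE; adjusted p = 0.295; exact permutation p = 0.0303). On the log2(CPM + 1) scale it was 0.34. No WT library exceeded 1 CPM, so Mmp27 may have passed the filter through DKO alone, and its p-values are description only. Mmp23, which lacks the usual cysteine switch of the precursor, ranged from -0.58 to 1.18 in DKO and from -0.55 to 0.52 log2 CPM in WT, with a log2 fold change of 0.34 (SE 0.34). Mmp23 overlaps Mib2 in the same annotation. The collagenases Mmp8 and Mmp13 and the stromelysins were not analysed here.

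**Figure D2:**
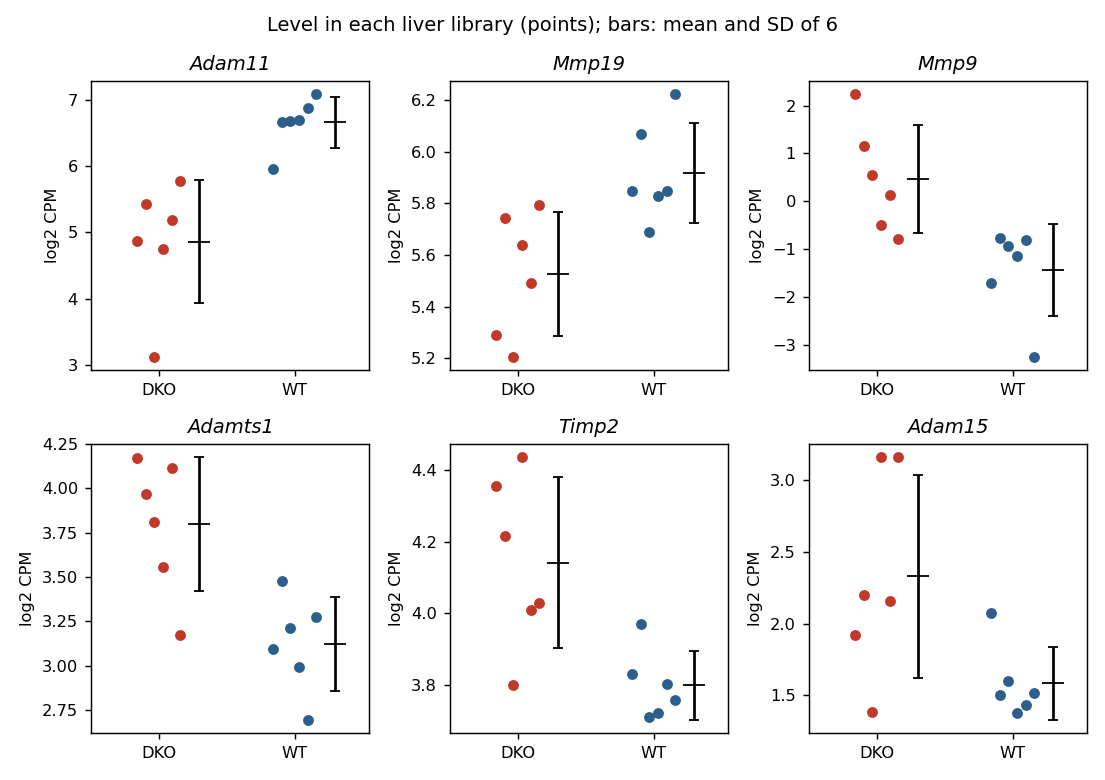
Level in log2 CPM (vertical axis, a separate scale for each gene) of 6 members in each library, DKO in red and WT in blue, with the mean and SD of each group of 6 as bars. Adam11 separates the groups, whereas Mmp19, Mmp9, Adamts1, Timp2 and Adam15 each have at least 1 DKO library within the WT range.

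Among Adamts genes limma called 0 of 9, with 1 at an unadjusted p below 0.05 (Adamts1), beside 1.74% and 16.4% of all genes. The most positive values were found in the proteoglycan-cleaving group of Adamts1, Adamts5, Adamts9 and Adamts15, which cut versican and aggrecan. Adamts1 had lowest, median and highest levels of 3.18, 3.89 and 4.17 log2 CPM in DKO, against 2.70, 3.15 and 3.48 in WT. Of its DKO libraries 5 lay above every WT library and DKO 6 lay within the WT range. The means were 3.80 ± 0.38 in DKO and 3.12 ± 0.27 log2 CPM in WT (SD, n = 6 each), a log2 fold change of 0.68 (SE 0.18, 95% interval 0.29 to 1.06, 1.60-fold). It missed the threshold (adjusted p = 0.0744; exact permutation p = 0.0108), and without DKO 6 it passed, with a log2 fold change of 0.80 (adjusted p = 0.0221).

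Adamts5 had 0.45, 1.24 and 2.28 log2 CPM in DKO, against 0.015, 0.64 and 1.13 in WT, as lowest, median and highest levels. Adamts9 had 0.61, 1.13 and 2.02 log2 CPM in DKO, against -0.15, 0.67 and 1.12 in WT. In both genes DKO 1 and DKO 2 were the highest of the 12 libraries, and 3 DKO libraries exceeded every WT library. The log2 fold changes were 0.69 (SE 0.33, adjusted p = 0.317) for Adamts5 and 0.64 (SE 0.32, adjusted p = 0.335) for Adamts9. Adamts15 had a median of -0.078 log2 CPM in DKO and -0.25 in WT, while its log2 fold change, taken from the means, was -0.066 (SE 0.45). The mean of WT was raised by WT 4, at 1.80 log2 CPM, and the direction turned without DKO 1, WT 1 or WT 4.

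The procollagen-processing enzymes trim the amino-terminal propeptide of fibrillar collagens. Adamts14 averaged 1.23 ± 0.25 log2 CPM in DKO and 0.84 ± 0.26 in WT (SD, n = 6 each), with all 6 DKO libraries above the WT mean and a mean log2 difference of 0.39 ± 0.20 (SE; adjusted p = 0.354; exact permutation p = 0.0260). Adamts2, the best-known enzyme of this kind, averaged 3.47 ± 0.34 in DKO and 3.57 ± 0.15 log2 CPM in WT, with a log2 fold change of -0.11 (SE 0.15). The DKO values of Adamts2 spanned the whole WT range, 2 of them above it and 2 below it.

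Adamts13, the enzyme that cuts von Willebrand factor and is made in liver by stellate cells, had 2.85, 3.14 and 3.44 log2 CPM in DKO, against 2.61, 2.95 and 3.30 in WT, as lowest, median and highest levels. The log2 fold change was 0.16 (SE 0.15, 95% interval -0.16 to 0.48, adjusted p = 0.660). Adamts10, which binds fibrillin, and Adamts7, which cuts cartilage oligomeric matrix protein, had the log2 fold changes nearest 0, with 0.020 (SE 0.14) and 0.0016 (SE 0.23). Both turned in direction when the library medians were subtracted or the libraries were quantile normalized. Adamts7 varied more in DKO, from 2.32 to 3.76 log2 CPM, than in WT, from 2.64 to 3.35 log2 CPM, though the difference in spread was not tested.

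Adamts-like proteins resemble Adamts enzymes without the protease domain, and Adamtsl2 and Adamtsl4 bind fibrillin microfibrils. Of the 4 measured, limma called 0 (1.74% of all genes), 0 had an unadjusted p below 0.05 (16.4% of all genes), and 2 pointed each way. Adamtsl5 had -0.57, 1.22 and 1.86 log2 CPM in DKO, against -0.68, 0.52 and 1.23 in WT, as lowest, median and highest levels, with a mean log2 difference of 0.75 ± 0.44 (SE; adjusted p = 0.429). Adamtsl4 had 2.04, 2.39 and 2.85 log2 CPM in DKO, against 0.93, 3.07 and 4.04 in WT, so that all DKO libraries lay inside the WT range, and its log2 fold change was -0.34 (SE 0.40, adjusted p = 0.734). It was -0.71 without WT 3, the lowest library, and -0.086 without WT 6, the highest. Adamtsl1 ranged from -1.78 to 0.49 in DKO and from -2.19 to -0.43 log2 CPM in WT, with a log2 fold change of 0.54 (SE 0.47). Adamtsl2 ranged from 2.23 to 3.82 in DKO and from 2.84 to 4.01 log2 CPM in WT, with -0.31 (SE 0.27).

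Of the inhibitors Timp2 and Timp3 were measured, and neither was called; Timp1 and Timp4 were not analysed here. Timp2, a soluble inhibitor that also serves as the bridge between Mmp14 and the Mmp2 precursor, had lowest, median and highest levels of 3.80, 4.12 and 4.44 log2 CPM in DKO, against 3.71, 3.78 and 3.97 in WT. Of its DKO libraries 5 lay above every WT library and DKO 3 lay within the WT range. The means were 4.14 ± 0.24 in DKO and 3.80 ± 0.096 log2 CPM in WT (SD, n = 6 each), with a mean log2 difference of 0.34 ± 0.12 (SE; adjusted p = 0.143; exact permutation p = 0.00866). Timp2 overlaps Cep295nl in the GRCm38 annotation.

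Timp3, which is held in the matrix and blocks Adam17 as well as Mmp enzymes, had 4.87, 5.06 and 5.58 log2 CPM in DKO, against 4.35, 4.88 and 5.23 in WT. All 6 DKO libraries lay above the WT mean, but only DKO 3 and DKO 4 lay above every WT library. Its log2 fold change, also 0.34, had a wider SE of 0.18 (adjusted p = 0.352; exact permutation p = 0.113). Timp3 lies within Syn3 in the annotation, and Syn3 had a log2 fold change of -0.21 (adjusted p = 0.854).

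Within libraries, the log2 ratio of Timp2 to Mmp14 was -0.41 ± 0.33 in DKO and -0.89 ± 0.28 in WT (SD, n = 6 each), and ranged from -0.70 to 0.11 in DKO and from -1.11 to -0.36 in WT. That of Timp2 to Mmp2 was 2.39 ± 0.61 in DKO and 2.44 ± 0.40 in WT. The ratio of Timp3 to Adam17 was 0.86 ± 0.60 in DKO and 0.69 ± 0.65 in WT, and that of Timp3 to Adam10 was 0.10 ± 0.34 in DKO and -0.11 ± 0.43 in WT. With the protease on top, the ratio of Mmp9 to Timp2 was -3.68 ± 1.09 in DKO and -5.24 ± 0.94 in WT. On average Mmp9 was thus higher relative to Timp2 in DKO, while Mmp14 was lower relative to it. Mmp9 exceeded 1 CPM in DKO libraries only, and the lowest WT ratio, -7.02, came from WT 6, where Mmp9 stood at the lowest value of the table. The Mmp9 ratio is therefore description only. These pairs were chosen after the values had been seen, and only changes of a ratio between groups can be read, since the values are not divided by gene length. The ranges of the 2 groups overlapped for all 5 ratios, and none was tested.

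The members did not move as a block from library to library. DKO 1, DKO 2 and DKO 5 each held the highest of the 12 values for 6 members, and DKO 4 for 3, against 4 for WT 6 and 1 or 0 for the other WT libraries. The lowest of the 12 values fell in WT 5 for 6 members and in DKO 3 for 5. The library medians of the members' deviations from the WT mean ran from 0.029 in DKO 3 to 0.37 in DKO 2, and from -0.094 in WT 5 to 0.10 in WT 2.

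**Figure D3:**
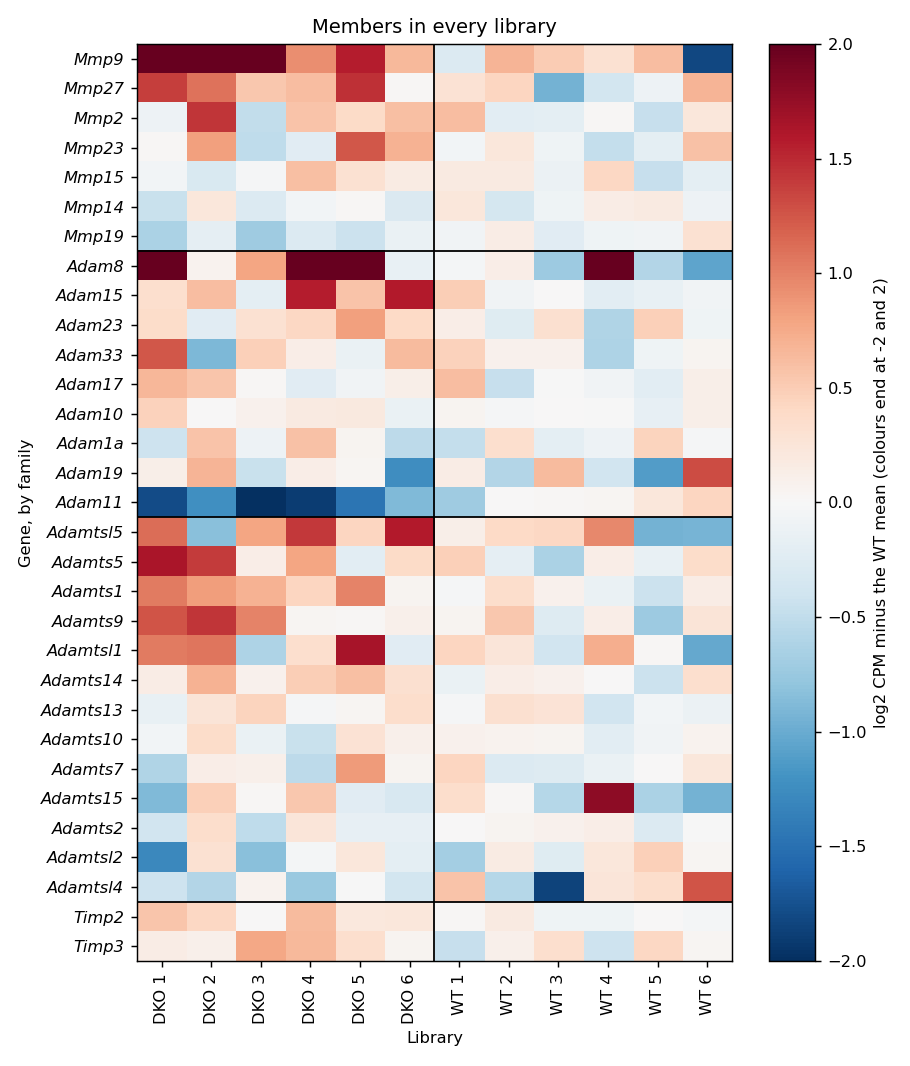
Deviation of each member (rows, by family) from its WT mean in each library (columns, DKO left of the line and WT right of it), in log2 CPM; colours end at -2 and 2. Adam11 and Mmp19 are below their WT means in all 6 DKO libraries, Mmp9, Mmp27, Adamts1, Adamts9, Adamts14, Timp2 and Timp3 are above theirs in all 6, and in each of the other genes at least 1 DKO library lies on the opposite side.

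Genes around these enzymes were followed in 5 lists. For comparison, 1.74% of all genes were called, 16.4% had an unadjusted limma p below 0.05 and 50.8% had a log2 fold change above 0. Of 17 measured activators and regulators, among them the plasmin system, Reck and Lrp1, limma called 0, with 6 at an unadjusted p below 0.05 and a median log2 fold change of -0.11. Plau and Plat, the urokinase and tissue activators of plasminogen, had log2 fold changes of 1.01 (SE 0.32, adjusted p = 0.123) and 1.38 (SE 0.44, adjusted p = 0.124). Plg, plasminogen itself, had -0.29 (SE 0.098, adjusted p = 0.150). These 3 were picked out after their values had been seen. Plat averaged -0.36 log2 CPM in DKO and -1.75 in WT. It may have passed the authors' filter through DKO alone, and its p-value is description only. Among 10 measured partners of Adam10 and Adam17, the iRhom proteins and tetraspanins that guide them, 0 were called, 1 had an unadjusted p below 0.05 and the median was 0.16.

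Of 25 measured substrates of shedding 12 had a log2 fold change above 0 and 13 below it, with a median of -0.024. Limma called 2 higher and 0 lower, and 11 had an unadjusted p below 0.05. Cdh1, E-cadherin, which Adam10 cuts, averaged 5.81 ± 0.31 log2 CPM in DKO and 4.50 ± 0.65 in WT (SD, n = 6 each), a 2.48-fold rise (adjusted p = 0.0210) that lost its call without DKO 4 (0.0538) or WT 3 (0.0521). In this list Gpnmb and Trem2 also stand among the lipid-associated macrophage markers, Csf1r among the macrophage markers and Lrp1 among the regulators. Gpnmb, a glycoprotein of lipid-laden macrophages that is also shed, averaged 2.23 ± 0.83 in DKO and -2.40 ± 1.15 log2 CPM in WT. Its log2 fold change of 4.63 (limma adjusted p = 0.000851) depends on how the lowest values were set, since 3 WT libraries stood at the lowest value of the table. On the log2(CPM + 1) scale it was 2.23 (adjusted p = 0.0012). Gpnmb averaged far below 1 CPM in WT and may have passed the authors' filter through DKO alone. Its call and p-values are therefore given as description and not as support for a difference.

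Of 28 measured matrix substrates 25 had a log2 fold change above 0, with a median of 0.40. Limma called 2 higher and 0 lower, and 15 had an unadjusted p below 0.05. Spp1, osteopontin, rose 1.83-fold (adjusted p = 0.0213), and Sparc, a collagen-binding glycoprotein, rose 1.42-fold (adjusted p = 0.0453). Spp1 lost its call without DKO 1 (0.0505) or WT 6 (0.0560), and Sparc without 10 of the 12 libraries (up to 0.104). The fibrillar collagen genes Col1a1, Col1a2 and Col3a1 had log2 fold changes of 1.02, 0.72 and 0.98 and did not pass (adjusted p = 0.130, 0.0787 and 0.0928); these collagens were picked out after their values had been seen. The 3 collagens and Dcn also stand among the 15 stellate cell markers, and Spp1 among the markers of lipid-associated macrophages and of cholangiocytes.

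Among 21 measured genes of other secreted metalloproteases and procollagen processing 13 had a log2 fold change above 0 and 8 below it. Limma called 2 lower and 0 higher, 8 had an unadjusted p below 0.05, and the median log2 fold change was 0.12. Bmp1, a metalloprotease of the astacin family that trims the carboxy-terminal propeptide of procollagens, averaged 5.93 ± 0.13 log2 CPM in DKO and 6.41 ± 0.15 in WT (SD, n = 6 each). Its groups did not overlap, and its fall to 71.7% of WT, -0.48 on the log2 scale with an SE of 0.088 (adjusted p = 0.0163), kept its call without any 1 library (up to 0.0425). Cpq, a secreted carboxypeptidase, fell to 75.4% of WT (adjusted p = 0.0334) and kept its call in 3 of the 12 fits without 1 library (up to 0.0831).

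**Figure D4:**
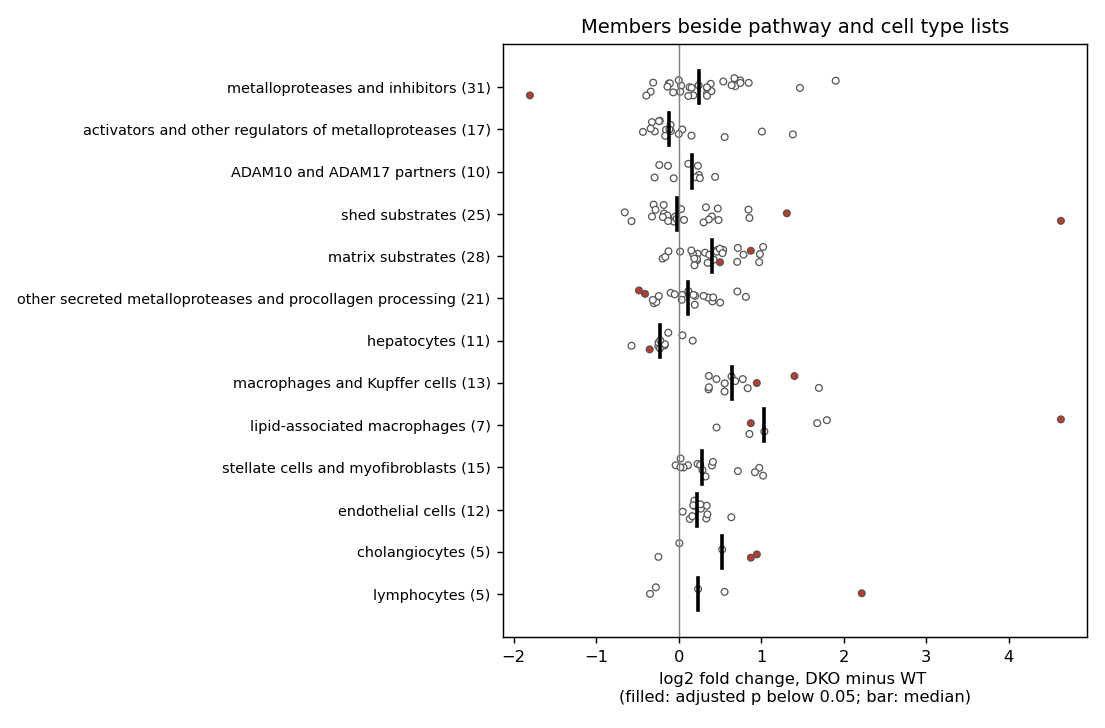
Log2 fold change (DKO minus WT, horizontal axis) of single genes in the members, in 5 pathway lists and in cell type lists with more than 1 measured gene; the number measured is in brackets, bars are medians and filled points have an adjusted p below 0.05. The medians are 0.24 for the members, 0.40 for matrix substrates, 0.64 for macrophage and Kupffer cell markers and -0.22 for hepatocyte markers.

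Stellate and endothelial cells are known to express Adamts and Timp genes, and their markers are given beside these. The shares over all genes were 50.8% above 0, 1.74% called and 16.4% at an unadjusted limma p below 0.05. Of 15 stellate cell and myofibroblast markers 14 had a log2 fold change above 0, with a median of 0.29, 0 called, 7 at an unadjusted p below 0.05 and a summed level of 517 to 674 CPM in DKO and 442 to 537 CPM in WT. All 12 endothelial markers were above 0, with a median of 0.23, 0 called, 6 at an unadjusted p below 0.05 and a sum of 481 to 609 CPM in DKO and 446 to 530 CPM in WT. None of the marker values in these 2 lists was at the lowest value of the table. Among 5 measured cholangiocyte markers 4 were above 0 and 2 were called higher, Spp1 and Cd24a. The sum of the 5 was 34.6 to 65.2 CPM in DKO and 21.2 to 32.3 CPM in WT. Of 5 measured lymphocyte markers 3 were above 0 and 1 was called higher, the immunoglobulin heavy chain gene Ighm. The 5 summed to 10.1 to 134 CPM in DKO, highest in DKO 1, and 8.21 to 11.6 CPM in WT. Of the list for adipocytes and pancreas only Cfd was measured, and it fell, with 0.104 to 3.41 CPM in DKO and 0.776 to 19.2 CPM in WT. The part of these cells in the values of Adamts1, Adamts5, Adamts9, Mmp2, Timp2 and Timp3 was not tested.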

How the data were processed

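The deposited table is in log2 CPM, and its name says that the authors had filtered and normalized it; the kind of filter, the added count and the scaling are details not given in the sources used here. Kallisto 0.46.2, edgeR, limma and GRCm39 (mm39) appear in the submitters' processing notes without roles. A line with no gene name, 1 of 12285 (0.0075% to 0.0148% of a library's CPM), was not used. Symbols were used as deposited; 20 had become dates and 2 were repeated, and none of these was named.

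Groups came from the genotype labels. All 12284 genes were fitted with limma 3.58.1 in R 4.3.3 (mean trend, 2-sided), with Benjamini-Hochberg adjustment over all of them, and the fit was tested on simulated data. Single genes were also compared by exact permutation over 924 divisions into 6 and 6. Families and lists were described by counts and medians, without a set test. The members and lists were chosen with earlier results of these data known. Called members, members with an unadjusted p below 0.05, the extremes of each family and a fixed set of well-known members were to be named with their tests; the other members are given more briefly. All 31 members were found in RefSeq's GRCm38.p6 annotation, which was used for overlapping genes only, since the build differs. Alternatives were no mean trend, robust limma, log2(CPM + 1), a filter at a mean of 1 log2 CPM, library medians subtracted, quantile normalization, weights per library (array weights), a block for the replicate number, and each library left out. A planned search for the zinc-binding motif in protein sequences was not run. Plots came from matplotlib 3.10.9 (Python 3.11.15).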

Additional observations from a re-analysis of the deposited data

Results flagged for a closer look

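In 4 of the 62 groups of 6 examined (31 members, DKO and WT), 1 library stood far from the others by Dixon's test at the 95% level, which chance gives in about 1 of 20 groups. All 4 were WT libraries. For Adam11, WT 1 had 5.95 log2 CPM against 6.66 in the nearest WT library, while the highest DKO library had 5.77. For Adam15, WT 1 had 2.08 log2 CPM, with the next WT library at 1.60. For Adam8, WT 4 had 0.82 log2 CPM, with the next at -1.35. For Adamts2, WT 5 had 3.30 log2 CPM, with the next at 3.56. Without WT 1 the log2 fold change of Adam11 was -1.94 (adjusted p = 0.0130) and that of Adam15 0.85 (adjusted p = 0.144), and without WT 4 that of Adam8 was 1.93 (adjusted p = 0.181).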

How the results depend on the processing

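The number of genes called, 214, was 138 without the mean trend, 109 with quantile normalization, 356 with array weights, 397 with the replicate block, and 92 to 373 with 1 library left out. Members called lower numbered 2 with the replicate block, which added Mmp19 (-0.39, adjusted p = 0.0272), and 0 to 1 with 1 library left out; members called higher numbered 0 to 1, the 1 being Adamts1 without DKO 6. The main fit did not take the replicate numbers as pairs, since no label says what libraries of equal number share. Same-numbered libraries correlated at -0.077 to 0.29 in their deviations from the group means, and the block raised the genes called from 214 to 397. Whether equal numbers mark a shared structure was not tested. Adam11 stayed called under all 8 alternatives that kept every library (adjusted p up to 0.0456). Against values of 0.0016, 0.020 and 0.030 as reported, Adamts7 was -0.020 with library medians subtracted and -0.069 with quantile normalization, Adamts10 was -0.0013 and -0.031 under these 2, and Adam1a was -0.13 with quantile normalization and -0.013 with array weights. With 1 library left out, Adamts7 ran from -0.17 to 0.12, Adamts10 from -0.050 to 0.12, Adam1a from -0.083 to 0.14, Adam19 from -0.34 to 0.14 and Adamts15 from -0.26 to 0.29. The cause of these turns was not tested. Over 39 named genes and these 8 alternatives, 285 of 299 values kept their direction and their side of the threshold. Of the others, 7 were lost calls of Sparc and Cpq, with adjusted p from 0.0505 to 0.0748. Family medians kept their direction under every alternative except that of Mmp genes, which was -0.0090 with the filter. On the log2(CPM + 1) scale Adamtsl5 was 0.46, Adamtsl1 0.22, Mmp23 0.20 and Adam33 0.16. Without at least 1 library the values of Adam10, Adam17, Adam23, Adam33, Adamts2, Adamts13, Adamtsl1, Adamtsl2, Mmp14, Mmp15 and Mmp23, none of them called, also moved by over 1.5 times and kept their direction. Depth is unknown, so precision rests on the spread between libraries.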
